A study of Mus musculus with 9 samples.

Results

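Eosinophils, granulocytes that mature under the growth factor interleukin-5, were sorted from quadriceps muscle infiltrates of adult mice and their RNA was sequenced. The comparison described here sets 3 libraries of mdx_IL5Tg mice against 3 libraries of IL5Tg mice. These are 6 of the 9 libraries of the series, and all 54146 genes of its table enter. IL5Tg animals carry an interleukin-5 transgene, and mdx_IL5Tg animals carry the transgene together with mdx, the mutant dystrophin gene that models Duchenne muscular dystrophy. All animals of the comparison therefore share the transgene, and the dystrophic background is what the labels give as the difference. The promoter that drives the transgene is not given in the sources used here. The strain entry of every sample reads mdx, IL5Tg included, which goes against the titles, and groups were taken from the titles. The remaining group, mdx mice without the transgene, is not compared here. It enters through the filter on low counts, the scaling, the shared estimate of spread and the mean expression used to choose named genes. The design text calls the replicates biological. Libraries are named by their group and the S number of their column, since no label ties a column to a numbered replicate.

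Dystrophin anchors the muscle fibre membrane to the cytoskeleton, and without it fibres tear, die and regenerate in an inflamed, matrix-rich tissue that eosinophils enter. Interleukin-5 drives eosinophil output from the marrow and prolongs survival in tissue, so transgenic animals have many eosinophils with or without muscle disease. Mature eosinophils no longer divide, hold preformed toxic granule proteins whose messages peak in marrow precursors, and rely largely on glycolysis for energy.

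The cells sorted were live and carried CD45 (Ptprc) and Siglec-F (Siglecf), and cells with CD11c (Itgax), Gr1 (an epitope of Ly6g and Ly6c) or MHC class II were kept out. Levels are given as CPM, counts scaled to a common library size and normalised by the trimmed mean method of edgeR. The value after the ± sign of a mean level is the SD over 3 libraries. Changes are log2 differences of mdx_IL5Tg from IL5Tg with a standard error after the ± sign. This error was worked back from the log2 change and the test statistic of edgeR. P-values are adjusted over all tested genes. Siglecf was at 329.9, 336 and 394 CPM in IL5Tg (S7, S8 and S9 in order) and at 529, 449 and 584 CPM in mdx_IL5Tg (S1, S2 and S3), and its difference of 0.56 ± 0.16 (adjusted p = 0.056, edgeR) did not pass. Il5, which checks the transgene, was present in all 6 libraries, at 523, 317 and 460.5 CPM in IL5Tg and at 664, 724 and 696 CPM in mdx_IL5Tg. It rose by 0.68 ± 0.18 (adjusted p = 0.045, edgeR). Il5 lost its call when IL5Tg S8, IL5Tg S9, mdx_IL5Tg S1 or mdx_IL5Tg S2 was left out or under library totals only or strict filter (adjusted p 0.051 to 0.14, edgeR). Dmd fell by 1.40 ± 0.34 (adjusted p = 0.037, edgeR), from 6.62, 5.45 and 5.29 to 1.64, 2.22 and 2.74 CPM, and the mdx mutation leaves a transcript, so this level checks no label. Dmd lost its call when IL5Tg S7, IL5Tg S8, IL5Tg S9, mdx_IL5Tg S1, mdx_IL5Tg S2 or mdx S6 was left out (adjusted p 0.054 to 0.17, edgeR).

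Among the 15886 genes that passed a filter on low counts, 691 were higher in mdx_IL5Tg (4.35% of those tested) and 456 were lower (2.87%), at an edgeR adjusted p under 0.05. The 2 directions differed in kind. Genes called higher had a median level of 55.81 CPM in IL5Tg and a median log2 change of 0.77, and 200 of 691 changed more than 2-fold. Genes called lower had a median level of 7.615 CPM in IL5Tg and a median log2 change of -1.68, and 372 of 456 changed more than 2-fold. The 3 libraries of a group lay wholly on 1 side of the other group in all 691 higher genes and in 451 of 456 lower genes, against 19.4% and 16.4% of all tested genes (35.9% in either direction). The first principal component of these 6 libraries held 48.5% of the variance and placed IL5Tg S7, S8 and S9 at -49.79, -55.50 and -27.85 and mdx_IL5Tg S1, S2 and S3 at 61.69, 57.95 and 13.51. mdx_IL5Tg S3 thus stood between the other libraries of its group and IL5Tg, and it was the mdx_IL5Tg library nearest IL5Tg in 404 of 691 higher and 285 of 456 lower genes. Without mdx_IL5Tg S3 the counts were 916 higher and 925 lower, and without mdx_IL5Tg S1 they were 108 and 2. Leaving out IL5Tg S7 gave 200 and 56, S8 gave 295 and 174, S9 gave 269 and 88, and mdx_IL5Tg S2 gave 213 and 41. The mdx libraries are not compared but enter the filter, the scaling and the spread. Leaving out mdx S5 gave 1557 and 1084, mdx S4 gave 690 and 262 and mdx S6 gave 563 and 212.

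Of these calls 104 higher and 2 lower held in all 18 alternative settings run, which include leaving out each of the 9 libraries. Many genes described below with their values come from this set, and many others do not. Those of the set were chosen after their values were seen unless a list or rule had named them. The share of counts from loci of 2 gene types, sense intronic and TEC, moved with the groups and with mdx_IL5Tg S3. Loci that GENCODE places in these types (short, mostly unspliced transcripts, those of TEC with unsettled status as genes) held 0.603%, 0.917% and 0.549% of counts in IL5Tg S7, S8 and S9, and 0.182% and 0.183% in mdx_IL5Tg S1 and S2, and 0.412% in mdx_IL5Tg S3. Malat1, a nuclear RNA, held 1.26%, 1.89% and 1.24% in IL5Tg and 0.468%, 0.5% and 1.05% in mdx_IL5Tg, in the same order. Their part in the differences below was not tested.

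Loci of these classes made up 127 of the 456 lower calls. Of 931 tested TEC loci 112 (12%) were called lower and 3 higher, and of 131 sense intronic loci 15 (11.5%) were lower and 1 higher. Their medians were -1.31 and -1.32, against 0.01 for the 13263 protein-coding genes, of which 284 (2.14%) were lower and 666 (5.02%) higher. Of the 127 lower loci 112 lay inside a tested protein-coding gene on the same strand, as did 702 of the 931 uncalled loci of the 2 types. For these 112 lower loci the median change was -1.88, against -0.40 for the genes that hold them. For the 702 uncalled loci it was -1.30, against -0.12 for the genes that hold them. No strand setting or splicing filter is given in the sources used here, so reads of such a locus and unspliced reads of its host gene cannot be told apart.

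**Figure D1:**
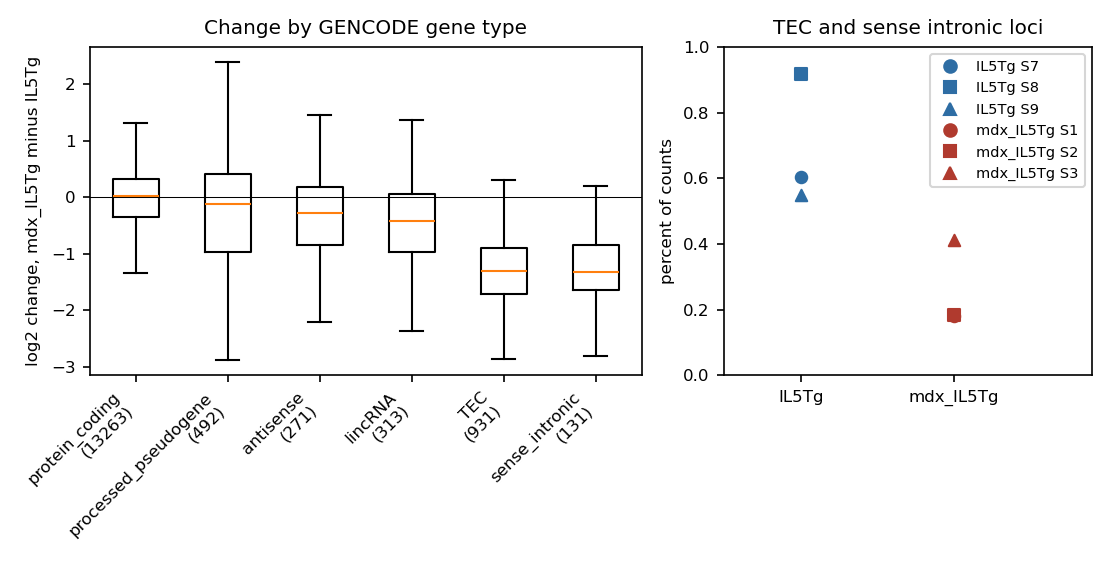
Left, log2 change in mdx_IL5Tg against IL5Tg by GENCODE gene type, with the number tested in brackets (box: quartiles, line: median, whiskers: most extreme values within the usual fence beyond the box, outliers not drawn). Right, percent of counts from TEC and sense intronic loci in each library, where mdx_IL5Tg S3 at 0.412% stands nearest the IL5Tg libraries.

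**Figure D2:**
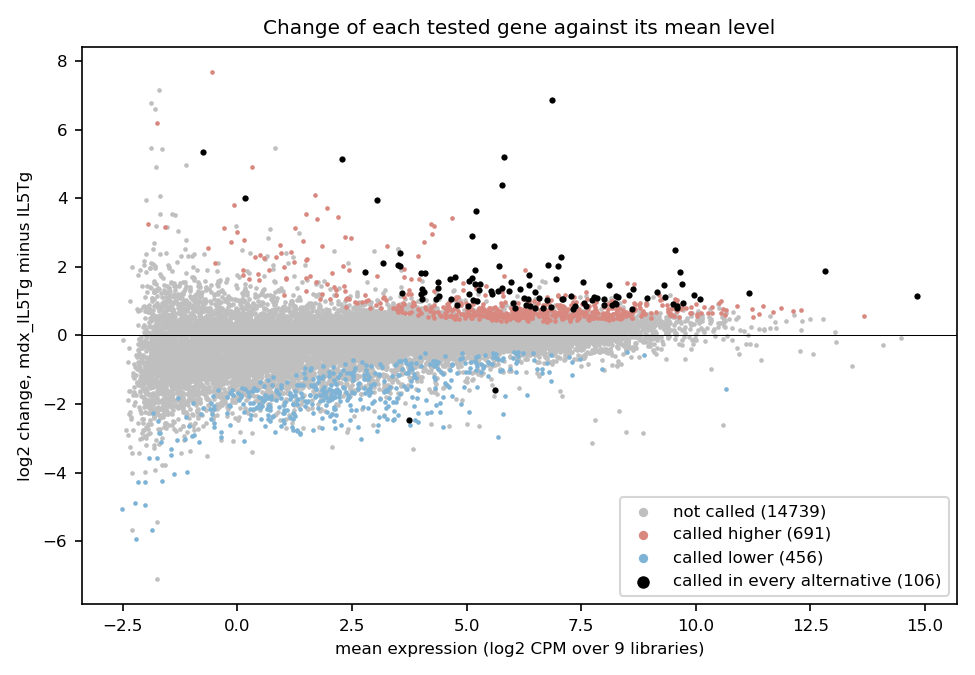
Each point is a tested gene, with its mean expression over the 9 libraries (log2 CPM, horizontal) and its log2 change in mdx_IL5Tg against IL5Tg (vertical). Called genes are coloured (691 higher, 456 lower), and the 106 called in every alternative are black, all but Slc5a3 and Gpr141 above 0.

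Counts of calls in the lists below stand beside 4.35% of all tested genes called higher and 2.87% called lower. Glycolysis held the most calls of any functional list. Of 21 tested genes of glucose uptake and glycolysis 12 rose, none fell, and the list's median log2 change was 0.58 against -0.05 over all tested genes. The 12 rises covered nearly every step from glucose phosphorylation to lactate export. 5 were called in every alternative, Pfkl, Tpi1, Pgk1, Pgam1 and Eno1. Leaving out IL5Tg S7, IL5Tg S8 or mdx_IL5Tg S2 left 7 called, and leaving out mdx_IL5Tg S1 left 5.

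Pfkl (ENSMUSG00000020277.10, protein coding, GRCm38 chromosome 10, 77986947 to 78010083) encodes the liver-type subunit of phosphofructokinase, the committed step. It was at 59.6, 64.3 and 75.1 CPM in IL5Tg (S7, S8 and S9 in order) and at 233, 220.3 and 169 CPM in mdx_IL5Tg (S1, S2 and S3), a rise of 1.65 ± 0.19 (adjusted p = 0.0024, edgeR). Every mdx_IL5Tg library was more than 2-fold above every IL5Tg library. Tpi1 (ENSMUSG00000023456.15, protein coding, GRCm38 chromosome 6, 124810586 to 124814296), triosephosphate isomerase, went from 173, 148 and 210.4 CPM to 587, 499 and 401 CPM and rose by 1.48 ± 0.19 (adjusted p = 0.0032, edgeR). Pgk1, phosphoglycerate kinase, which yields the first ATP of the pathway, went from 267, 246 and 305 to 707, 664 and 499 CPM, a log2 change of 1.19 ± 0.17 (adjusted p = 0.0064, edgeR). In each of these 3 genes mdx_IL5Tg S1 was highest and S3 lowest within its group, and IL5Tg S9 was highest within IL5Tg.

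The following enzymes moved by like amounts. Pgam1, phosphoglycerate mutase, rose by 1.14 ± 0.18 (adjusted p = 0.0097, edgeR) from 168 ± 32.7 to 370.0 ± 72.6 CPM (SD, n = 3). Eno1, enolase, rose by 1.18 ± 0.18 (adjusted p = 0.0076, edgeR) from 715 ± 95.3 to 1620.5 ± 297 CPM. Gapdh, often used as an unchanging reference, rose by 0.93 ± 0.15 (adjusted p = 0.0096, edgeR) and stood at 1107, 1158 and 1379 CPM in IL5Tg and 2647, 2257 and 2056 CPM in mdx_IL5Tg. Ldha, which turns pyruvate into lactate, rose by 0.91 ± 0.14 (adjusted p = 0.0097, edgeR), and Slc16a3, a lactate exporter, by 0.78 ± 0.17 (adjusted p = 0.03, edgeR). Bsg, the chaperone of lactate exporters and a gene outside the list, rose by 1.15 ± 0.16 (adjusted p = 0.0057, edgeR) from 107, 100.1 and 126 to 289.5, 252 and 196 CPM. Gapdh, Ldha and Slc16a3 lost their calls when mdx_IL5Tg S1 was left out (adjusted p 0.057 to 0.15, edgeR). Slc16a3 lost its call when IL5Tg S7, IL5Tg S8, IL5Tg S9 or mdx_IL5Tg S2 was left out (adjusted p 0.064 to 0.083, edgeR). The entry steps moved less: Hk2, a hexokinase, rose by 0.56 ± 0.14 (adjusted p = 0.037, edgeR), while Slc2a1, the glucose transporter GLUT1, was at 0.58 ± 0.17 and Gpi1 at 0.28 ± 0.14, neither past the test (edgeR adjusted p = 0.062 and 0.23). Hk2 lost its call when IL5Tg S7, IL5Tg S8, mdx_IL5Tg S1 or mdx_IL5Tg S2 was left out or under library totals only (adjusted p 0.091 to 0.16, edgeR). With library totals only, Hk2 was at 0.35.

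**Figure D3:**
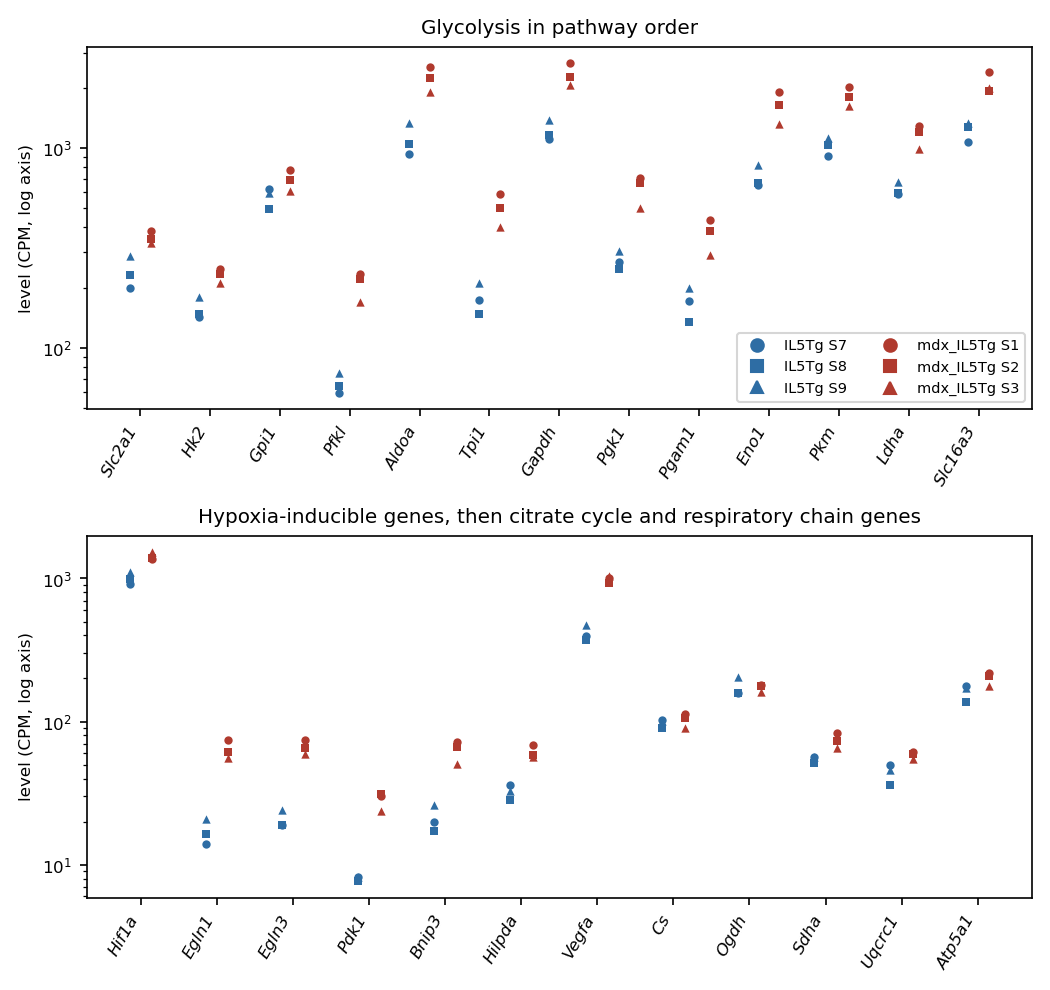
Levels (CPM, log axis) in each of the 6 libraries, with genes of glycolysis in pathway order above, and hypoxia-inducible, citrate cycle and respiratory chain genes below. The red mdx_IL5Tg points lie above the blue IL5Tg points from Pfkl to Slc16a3 and from Egln1 to Vegfa, and the groups lie close together at Cs, Ogdh and Uqcrc1. Sdha and Atp5a1 are drawn beside these.

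Hypoxia-inducible genes, the targets of the HIF transcription factors that respond to low oxygen, moved with glycolysis: 10 of 20 tested rose, none fell, and the median was 0.50. The call was kept in every alternative by Egln1, Egln3, Pdk1, Bnip3 and Vegfa. Leaving out IL5Tg S8 or mdx_IL5Tg S2, or scaling by library totals only, left 6 called, and leaving out mdx_IL5Tg S1 left 5. Egln1 and Egln3 encode the oxygen-sensing hydroxylases that mark HIF for destruction and are themselves HIF targets. Egln1 (ENSMUSG00000031987.6, protein coding, GRCm38 chromosome 8, 124908587 to 124949324) was at 13.98, 16.5 and 20.9 CPM in IL5Tg and 74.3, 61.5 and 55.3 CPM in mdx_IL5Tg, a rise of 1.89 ± 0.18 (adjusted p = 6.7e-04, edgeR). Egln3 went from 18.9, 18.8 and 24.3 to 74.4, 65.6 and 59.1 CPM and rose by 1.68 ± 0.20. The lowest mdx_IL5Tg library was more than 2-fold above the highest IL5Tg library in both genes.

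Pdk1, which slows the entry of pyruvate into the citrate cycle, was at 8.22, 7.63 and 8.201 CPM in IL5Tg and at 30.1, 31.04 and 23.5 CPM in mdx_IL5Tg. Bnip3, a mitophagy receptor, stood at 19.7, 17.3 and 26.1 and 71.7, 66.3 and 50.2 CPM, and Vegfa, the vascular growth factor, at 395, 370.2 and 474 and 1014, 936 and 1042 CPM. The 3 log2 changes were 1.82 ± 0.17 (adjusted p = 6.5e-04, edgeR), 1.58 ± 0.19 (adjusted p = 0.0024, edgeR) and 1.27 ± 0.14 (adjusted p = 0.0018, edgeR). Fam162a, a mitochondrial HIF target outside the list, rose by 2.11 ± 0.25 (adjusted p = 0.0024, edgeR) from 4.04 ± 0.951 to 17.4 ± 3.66 CPM. Hif1a itself, whose protein is mainly set by its stability, was at 0.51 ± 0.15 and did not pass (edgeR adjusted p = 0.067).

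Promoters of 5 of these genes, all of which hold the core of the hypoxia response element, are shown because glycolysis and hypoxia genes moved together. Each run is the 250 bases before the start site (RefSeq, GRCm38.p6), 5′ to 3′ on the strand of the gene, with capitals marking ACGTG or GCGTG on either strand (read on the other strand as CACGT and CACGC). Matches may overlap, and CACGTG counts on both strands.
Egln3, chr12:54203875-54204124, minus strand: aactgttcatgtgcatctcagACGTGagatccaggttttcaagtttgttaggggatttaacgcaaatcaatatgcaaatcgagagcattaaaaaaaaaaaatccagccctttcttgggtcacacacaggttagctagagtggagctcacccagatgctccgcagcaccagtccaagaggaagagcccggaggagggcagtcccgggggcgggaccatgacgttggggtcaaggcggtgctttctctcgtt
Pdk1, chr2:71872974-71873223, plus strand: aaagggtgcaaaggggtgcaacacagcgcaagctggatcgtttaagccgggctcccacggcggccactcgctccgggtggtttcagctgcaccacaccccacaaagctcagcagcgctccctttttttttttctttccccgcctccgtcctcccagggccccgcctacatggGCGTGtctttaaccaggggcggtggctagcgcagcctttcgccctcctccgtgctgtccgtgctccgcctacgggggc
Bnip3, chr7:138909507-138909756, minus strand: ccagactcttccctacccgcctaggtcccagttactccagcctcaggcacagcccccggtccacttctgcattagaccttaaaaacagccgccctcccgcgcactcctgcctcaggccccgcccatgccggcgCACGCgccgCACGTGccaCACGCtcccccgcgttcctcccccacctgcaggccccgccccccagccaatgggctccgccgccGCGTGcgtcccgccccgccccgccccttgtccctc
Pgk1, chrX:106186850-106187099, plus strand: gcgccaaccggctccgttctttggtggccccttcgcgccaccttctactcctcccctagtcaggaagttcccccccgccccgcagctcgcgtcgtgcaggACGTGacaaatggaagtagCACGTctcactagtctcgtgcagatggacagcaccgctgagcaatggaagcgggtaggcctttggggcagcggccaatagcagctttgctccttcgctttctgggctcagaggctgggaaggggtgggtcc
Pfkl, chr10:78009808-78010057, minus strand: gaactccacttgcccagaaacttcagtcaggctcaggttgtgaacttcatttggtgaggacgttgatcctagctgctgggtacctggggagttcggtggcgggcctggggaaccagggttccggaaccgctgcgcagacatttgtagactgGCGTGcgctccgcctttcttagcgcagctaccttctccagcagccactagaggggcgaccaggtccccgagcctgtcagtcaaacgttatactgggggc

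The Bnip3 run holds 5 matches, that of Pgk1 2, and those of Egln3, Pdk1 and Pfkl 1 each. In the full window of 250 bases before to 50 after the start, the motif was present in 62.2% of 9969 promoters of tested genes, in 15 of 20 glycolysis promoters (75%) and in 13 of 16 hypoxia-inducible promoters (81.2%). Among promoters of the genes that held their rise in every alternative it was present in 44 of 67 (65.7%). Among called genes alone it was present in 9 of 12 glycolysis promoters (75%) and 7 of 9 hypoxia-inducible promoters (77.8%). In the 250 bases before the start it was in 6 of these 9 (66.7%), against 55.9% of all 9969. A match is a description of the letters, and the short motif is common in promoters of all kinds. It was also present in 9 of 12 mitosis promoters (75%), 7 of 13 replication promoters (53.8%) and 5 of 11 NF-kB promoters (45.5%), and in 66% of the promoters of all higher genes and 59.6% of those of all lower genes. The Vegfa run of the same length holds no match in these letters.

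Mitochondrial lists held no calls in edgeR. None of 14 tested genes of the citrate cycle and pyruvate dehydrogenase passed in edgeR in either direction, with a median log2 change of 0.01. Of these 14 genes 3 were higher without overlap, against 19.4% of all tested genes. 2 of them were higher at an unadjusted p under 0.05, 1 with DESeq2, 0 with limma voom and 2 with voom quality weights. None of 17 nuclear genes for respiratory chain subunits passed in edgeR, with a median of 0.34. Of these 17 genes 8 were higher without overlap, against 19.4% of all tested genes. 6 were higher at an unadjusted p under 0.05, 1 with DESeq2, 0 with limma voom and 8 with voom quality weights. The 13 messages encoded by the mitochondrial genome had a median of -0.30 and no call in edgeR, with 1 lower at an unadjusted p under 0.05, 0 with DESeq2 or limma voom and 1 with voom quality weights. Their summed level was 4835 to 6695 CPM in IL5Tg and 3783 to 6280 CPM in mdx_IL5Tg, so the groups overlapped. Whether the glycolysis list differed from these lists was not tested. In bulk libraries such as these, a change in the mix of cells and a change in RNA per cell cannot be told apart.

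NF-kB, the dimeric transcription factor that drives inflammatory genes, was represented by 14 tested subunits and inhibitors, of which 8 rose and none fell, with a median of 0.68. Relb, a subunit of the non-canonical branch, was at 73.4, 75.2 and 70.9 CPM in IL5Tg and 172, 139 and 148 CPM in mdx_IL5Tg, a rise of 1.07 ± 0.14 (adjusted p = 0.0039, edgeR). Nfkb1, the precursor of p50, went from 523, 577 and 538 to 899, 888 and 1048 CPM, a rise of 0.79 ± 0.13 (adjusted p = 0.0097, edgeR). In both genes IL5Tg varied little and lay below all mdx_IL5Tg libraries. Nfkb2 rose by 0.94 ± 0.17 (adjusted p = 0.015, edgeR), and the other called members lay between 0.45 and 0.86. Nfkb2 lost its call when IL5Tg S7 or mdx_IL5Tg S1 was left out (adjusted p 0.052 to 0.087, edgeR). Leaving out IL5Tg S7 or mdx_IL5Tg S1 left 2 called members, IL5Tg S9 or mdx_IL5Tg S2 left 3 and IL5Tg S8 left 5, while library totals only gave 4 and voom quality weights 13.

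The interleukin-1 and TNF family held 6 rises and 1 fall among 14 tested members, with a median of 0.38. Inhibitors of interleukin-1 and one of its ligands were among the rises. Il1r2 (ENSMUSG00000026073.13, protein coding, GRCm38 chromosome 1, 40074079 to 40125231), a decoy receptor that binds interleukin-1 without signalling, was at 82.5, 60.2 and 55.4 CPM in IL5Tg and 286, 258 and 261 CPM in mdx_IL5Tg, a rise of 2.02 ± 0.17 (adjusted p = 5.4e-04, edgeR). Il1rn, the receptor antagonist, went from 352, 418 and 349 to 1239, 1369 and 1449 CPM, a rise of 1.86 ± 0.19 (adjusted p = 0.0013, edgeR). The ligand Il1a went from 39.2, 24.4 and 25.4 to 111, 122 and 101 CPM, a rise of 1.91 ± 0.34 (adjusted p = 0.015, edgeR). Il1a lost its call when mdx_IL5Tg S1 was left out or under no filter (adjusted p 0.051 to 0.065, edgeR). Leaving out mdx_IL5Tg S1 left 2 higher, and the lower call ended on leaving out any 1 of the IL5Tg libraries, mdx_IL5Tg S1 or S3, or mdx S4 or S6.

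Chemokine ligands gave 3 calls of 14 tested, all higher, with a median of 0.99. Cxcl3, which draws neutrophils, was at 24.96, 25.8 and 49.6 CPM in IL5Tg and 162, 155 and 103 CPM in mdx_IL5Tg, a rise of 2.07 ± 0.28 (adjusted p = 0.0048, edgeR), with IL5Tg S9 highest in its group and mdx_IL5Tg S3 lowest. Cxcl2, a related ligand, rose by 1.53 ± 0.28 (adjusted p = 0.016, edgeR) and Ccl3, which draws macrophages and granulocytes, by 1.06 ± 0.24 (adjusted p = 0.032, edgeR). Ccl3 and Cxcl2 lost their calls when mdx_IL5Tg S1 was left out (adjusted p 0.063 to 0.087, edgeR). Ccl3 lost its call when IL5Tg S7, IL5Tg S8, IL5Tg S9 or mdx_IL5Tg S2 was left out or under library totals only (adjusted p 0.063 to 0.074, edgeR). Chemokine calls numbered 1 without mdx_IL5Tg S1 and 8 without mdx S5. Trem1, which amplifies inflammatory signals, and Acod1, which makes itaconate, lie outside the lists and were at 1.54 ± 0.17 and 1.35 ± 0.15, with calls in every alternative. By contrast none of 18 interferon-stimulated genes passed in edgeR, DESeq2 or limma voom, with a median of 0.04. 1 was lower at an unadjusted p under 0.05, and 3 were higher with voom quality weights.

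Some survival genes were also higher. Of 15 tested survival and death genes 4 rose and none fell, with a median of 0.40. Bcl2a1d and Bcl2a1b, near-identical anti-apoptotic copies whose shared reads make each value uncertain, rose by 1.5 ± 0.19 and 1.09 ± 0.12. Bcl2a1d was at 24.4, 25.4 and 29.3 CPM in IL5Tg and 80.8, 65.4 and 77.8 CPM in mdx_IL5Tg. Bcl2l1, which encodes Bcl-xL, rose by 0.99 ± 0.16 (adjusted p = 0.0097, edgeR). Bcl2l1 lost its call when mdx_IL5Tg S1 was left out (adjusted p = 0.051, edgeR). Survival calls numbered 2 without mdx_IL5Tg S1. In the interleukin-5 signal list 3 of 14 rose, with a median of 0.31: the feedback inhibitor Cish by 0.63 ± 0.13, the survival kinase Pim1 by 0.90 ± 0.21, and Pim2 by 0.62 ± 0.16. None was called in every alternative. Leaving out IL5Tg S8 or S9 or mdx_IL5Tg S1, or scaling by totals only, left 0 calls in that list, leaving out IL5Tg S7 or mdx_IL5Tg S2 left 1, and leaving out mdx S5 gave 6. Cish, Pim1 and Pim2 lost their calls when IL5Tg S8, IL5Tg S9 or mdx_IL5Tg S1 was left out or under library totals only (adjusted p 0.051 to 0.17, edgeR). Cish and Pim1 lost their calls when IL5Tg S7 was left out (adjusted p 0.071 to 0.087, edgeR). Pim1 and Pim2 lost their calls when mdx_IL5Tg S2 was left out (adjusted p 0.08 to 0.087, edgeR). Pim2 lost its call when mdx S6 was left out (adjusted p = 0.051, edgeR). With library totals only, Cish was at 0.41 and Pim2 at 0.39.

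Eosinophil identity genes on the surface held no calls in edgeR. None of 14 tested eosinophil surface receptors passed, and the median was 0.37. Of these 14 genes 8 were higher without overlap and 0 lower, against 19.4% and 16.4% of all tested genes. 6 were higher at an unadjusted p under 0.05, 5 with DESeq2, 2 with limma voom and 8 with voom quality weights. Il5ra, the interleukin-5 receptor subunit, was at 64.1, 53.97 and 62.5 CPM in IL5Tg and 52.1, 52.97 and 69.2 CPM in mdx_IL5Tg, with overlapping groups. Ccr3, the eotaxin receptor, was at 827, 1011 and 1064 and 1366, 1441 and 1310.3 CPM, with no overlap but no call (log2 0.50 ± 0.16 (adjusted p = 0.08, edgeR)).

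Granule protein messages were lower in every mdx_IL5Tg library than in any IL5Tg library, but were not called in edgeR, and the IL5Tg libraries varied widely. Prg2, major basic protein, was at 6997, 1611 and 2690.5 CPM in IL5Tg (S7, S8 and S9 in order) and at 651, 689 and 515 CPM in mdx_IL5Tg, a log2 change of -2.61 ± 0.79 (adjusted p = 0.08, edgeR). Epx, eosinophil peroxidase, was at 2019.8, 416 and 1029 and 151, 191 and 139 CPM, a change of -2.85 ± 1.09 (adjusted p = 0.14, edgeR). Ear2, an eosinophil ribonuclease with near-identical copies, was at 1050.4, 257 and 379 and 61.5, 72.2 and 58.95 CPM, a change of -3.13 ± 1.02 (adjusted p = 0.097, edgeR). IL5Tg S7 was highest in its group and S8 lowest in all 3 genes. 6 of 7 tested granule genes had groups without overlap in the lower direction, against 16.4% of all tested genes, with a list median of -2.63. All 6 were lower at an unadjusted p under 0.05, and 4 were called lower with DESeq2, 2 with limma voom and 1 with voom quality weights. The remaining member, Srgn, the proteoglycan core that packs granule contents, rose by 0.79 ± 0.15 (adjusted p = 0.017, edgeR). Srgn lost its call when mdx_IL5Tg S1 or mdx_IL5Tg S2 was left out (adjusted p 0.06 to 0.11, edgeR).

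Proliferation genes followed the same order of libraries. Of 15 tested mitosis genes 8 fell and of 15 tested DNA replication genes 5 fell, with medians of -1.88 and -1.12 and no rise. Mki67 was at 202, 44.3 and 87.8 CPM in IL5Tg (S7, S8 and S9 in order) and 9.44, 18.6 and 15.04 CPM in mdx_IL5Tg, a fall of 2.96 ± 0.65 (adjusted p = 0.036, edgeR). Top2a, a topoisomerase of dividing cells, was at 113, 24.3 and 54.7 and 12.5, 16.5 and 12.04 CPM, and Tyms, thymidylate synthase, at 12.1, 2.99 and 4.399 and 0.8098, 1.46 and 0.757 CPM. Their log2 changes were -2.22 ± 0.44 (adjusted p = 0.023, edgeR) and -2.69 ± 0.50 (adjusted p = 0.018, edgeR). In all 3 genes IL5Tg S7 was highest and S8 lowest, as for the granule genes. Without IL5Tg S7 the change of Top2a was -1.48. Mki67, Top2a and Tyms lost their calls when mdx_IL5Tg S1 was left out (adjusted p 0.11 to 0.16, edgeR). Mki67 and Top2a lost their calls when IL5Tg S7, mdx_IL5Tg S2 or mdx_IL5Tg S3 was left out or under no filter (adjusted p 0.051 to 0.11, edgeR). Mki67 lost its call when IL5Tg S9 or mdx S4 was left out (adjusted p 0.059 to 0.063, edgeR).

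Mitosis calls fell to 0 on leaving out IL5Tg S7 or mdx_IL5Tg S1, to 1 for mdx_IL5Tg S2 or S3, to 2 for IL5Tg S9, to 4 for mdx S6 and to 5 for mdx S4 or under limma voom, and DESeq2 gave 13. Replication calls fell to 0 on leaving out mdx_IL5Tg S1, to 1 for IL5Tg S7 or mdx_IL5Tg S2, to 2 for IL5Tg S9 and to 3 for mdx_IL5Tg S3. They reached 9 on leaving out IL5Tg S8 or under voom quality weights, and 11 under DESeq2. The promoter of Mki67 is shown for the E2F sites of cell cycle genes, with TTGGCGC in capitals (searched with TTCCCGC on both strands).
Mki67, chr7:135716380-135716629, minus strand: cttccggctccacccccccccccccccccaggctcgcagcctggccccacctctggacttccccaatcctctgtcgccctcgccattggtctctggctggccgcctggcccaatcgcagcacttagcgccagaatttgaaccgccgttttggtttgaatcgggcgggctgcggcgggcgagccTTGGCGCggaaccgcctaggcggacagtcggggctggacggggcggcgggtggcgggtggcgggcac

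At least 1 of these E2F letters was present in 8 of 13 replication promoters (61.5%), 3 of 12 mitosis promoters (25%) and 12% of all 9969, in the window of 250 before to 50 after the start. Among called genes alone they were present in 2 of 5 replication promoters (40%) and 1 of 6 mitosis promoters (16.7%). The runs of Rrm2 and Ccnb2 hold no match. Neutrophil markers varied in the same libraries, with a list median of -2.51. Of 10 tested members 4 were lower without overlap, against 16.4% of all tested genes. 2 rose (Cxcr2 and Retnig, the file's spelling of Retnlg) and none fell, with 1 call left on leaving out IL5Tg S7 or S9 or mdx_IL5Tg S1 or S2. The list's summed level was 743.2 to 1732 CPM in IL5Tg, S7 being highest, and 943.3 to 1320 CPM in mdx_IL5Tg. Mpo, a granule enzyme made in marrow precursors, was at 96.3, 13.5 and 8.54 CPM in IL5Tg (S7, S8 and S9 in order) and 5.15, 7.704 and 7.05 CPM in mdx_IL5Tg, and Ngp was at 861, 337 and 368 and 105, 110.0 and 70.3 CPM. Neither was called (edgeR adjusted p = 0.27 and 0.27). The part of IL5Tg S7 and of these markers in the granule and proliferation values was not tested beyond the values without S7 given here.

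**Figure D4:**
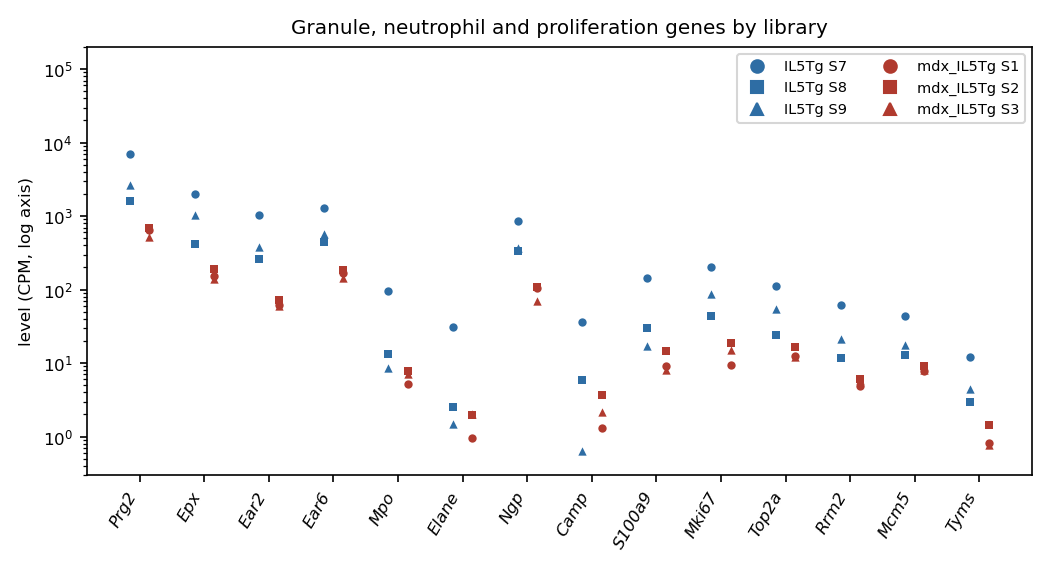
Levels (CPM, log axis) of granule genes (Prg2 to Ear6), neutrophil markers (Mpo to S100a9) and proliferation genes (Mki67 to Tyms) in the 6 libraries. The blue circle of IL5Tg S7 is the highest point for every gene shown, and the red mdx_IL5Tg points are the lowest for the granule and proliferation genes.

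Tissue-remodelling genes held some of the largest rises. Col22a1 (ENSMUSG00000079022.10, protein coding, GRCm38 chromosome 15, 71795795 to 72034227), a collagen found at muscle-tendon junctions, was at 1.38, 1.298 and 1.603 CPM in the IL5Tg libraries and 177, 163 and 161 CPM in the mdx_IL5Tg libraries, with little spread within either group (log2 6.87 ± 0.32 (adjusted p = 4.0e-06, edgeR)). Of 15 tested secreted repair factors 4 rose and none fell, with a median of 0.58. Tgm2, a transglutaminase that crosslinks matrix and a marker of type 2 activation, went from 2558, 3476 and 3356 to 11621, 11828 and 10838 CPM, a rise of 1.87 ± 0.16 (adjusted p = 5.4e-04, edgeR). Thbs1, thrombospondin, which activates TGF-beta, went from 13070.0, 17128 and 19948 to 35002, 34597 and 42522 CPM, a rise of 1.16 ± 0.19 (adjusted p = 0.0097, edgeR). Col22a1, Tgm2 and Thbs1 were called in every alternative. The TGF-beta receptor Tgfbr2 rose by 1.05 ± 0.15 and the ligand Tgfb1 by 0.74 ± 0.13. Tgfb1 lost its call when mdx_IL5Tg S1 was left out (adjusted p = 0.075, edgeR). Repair calls numbered 2 without mdx_IL5Tg S1.

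Of 15 tested metalloproteases and their inhibitors 5 rose and none fell, with a median of 0.39, and 4 of the 5 were called in every alternative. Mmp25, a membrane-bound protease of leukocytes, was at 206, 278 and 256 CPM in IL5Tg and 513, 447 and 445 CPM in mdx_IL5Tg, a rise of 0.93 ± 0.14 (adjusted p = 0.0075, edgeR). Adam19, a sheddase, went from 186, 167 and 207 to 411, 407 and 387 CPM, a rise of 1.11 ± 0.12 (adjusted p = 0.0018, edgeR). Mmp12 and Mmp19 rose by 5.14 ± 0.60 and 3.63 ± 0.47 from low levels, with Mmp12 at 0.224, 0.0649 and 0 and 2.86, 4.003 and 4.07 CPM and Mmp19 at 1.25, 0.941 and 2.16 and 21.3, 23.9 and 8.35 CPM. Mmp19 was 2-fold or more lower in mdx_IL5Tg S3 than in S1 and S2.

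Receptors that position and activate eosinophils rose in part. Of 16 chemoattractant receptors 5 rose, with a median of 0.37, and C5ar1, the complement C5a receptor, was called in every alternative, at 107, 141 and 144 CPM in IL5Tg and 242, 233 and 238 CPM in mdx_IL5Tg (log2 0.86 ± 0.14 (adjusted p = 0.0097, edgeR)). Leaving out mdx_IL5Tg S1 left 1 receptor call, IL5Tg S7 or S9 left 2, and mdx_IL5Tg S2 or scaling by totals only left 3. Of 13 integrins and selectin ligands 2 rose, against 4.35% of all tested genes, with a median of 0.36. Itgal, the alpha chain of LFA-1, went from 309, 323 and 291 to 698, 641 and 624 CPM, a rise of 1.09 ± 0.16 (adjusted p = 0.0061, edgeR). Itgax, which encodes CD11c, went from 41.3, 55.6 and 44.1 to 259, 245 and 189.8 CPM, a rise of 2.30 ± 0.18 (adjusted p = 3.5e-04, edgeR), although cells positive for CD11c were kept out by the sort. Integrin calls numbered 5 without mdx S5. Of 14 inhibitory and Fc receptors 3 rose, with a median of 0.46. Cd101, an inhibitory receptor, was at 4.51, 9.18 and 8.83 CPM in IL5Tg and 56.4, 50.002 and 60.1 CPM in mdx_IL5Tg, a rise of 2.89 ± 0.26 (adjusted p = 6.2e-04, edgeR). That list kept 1 call on leaving out mdx_IL5Tg S1 or S2 or scaling by totals only, and had 5 on leaving out mdx_IL5Tg S3 and 8 on leaving out mdx S5 or under DESeq2.

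Cytokine receptors outside the lists rose in every alternative as well. Il10ra, the interleukin-10 receptor, was at 1.07 ± 0.14 and Ifngr1, the interferon-gamma receptor, at 0.90 ± 0.14. Ifngr1 stood at 259.7, 216 and 231 CPM in IL5Tg and 452, 371 and 496 CPM in mdx_IL5Tg. The immediate early list held 2 rises of 21 tested, against 4.35% of all tested genes, with a median of 0.33. Egr2, a transcription factor of type 2 activation in myeloid cells, rose by 1.57 ± 0.21 (adjusted p = 0.0039, edgeR) from 6.18, 6.39 and 10.2 to 19.9, 25.1 and 22.7 CPM. Egr2 was the only call left in that list on leaving out any 1 of the 6 libraries compared or mdx S6, or scaling by totals only, and 6 were called on leaving out mdx S5. Dusp6, a phosphatase that damps ERK signalling, rose by 0.86 ± 0.14. Ski and Skil, corepressors that damp TGF-beta signalling, rose by 1.13 ± 0.18 and 0.78 ± 0.13.

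Pla2g7, which inactivates platelet-activating factor and belongs to the eicosanoid list, was at 1112, 1498 and 1511 CPM in IL5Tg and 3449, 3388 and 2849 CPM in mdx_IL5Tg, a rise of 1.23 ± 0.16 (adjusted p = 0.0035, edgeR). Of the 12 tested eicosanoid genes 3 rose, with a median of 0.34, and 1 was left on leaving out IL5Tg S7 or S8 or mdx_IL5Tg S1 or S2, or scaling by totals only. Dgat2, which makes triglyceride, rose by 1.75 ± 0.17 and Abca1, a cholesterol exporter, by 1.47 ± 0.22. Abca1 was at 274, 395 and 265 CPM in IL5Tg and 667, 779 and 1142 CPM in mdx_IL5Tg, with S3 highest. None of 13 cholesterol synthesis genes passed in edgeR, with a median of -0.34. 6 were lower at an unadjusted p under 0.05, 2 with DESeq2, 1 with limma voom and 5 with voom quality weights.

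Calls in the stress and housekeeping lists stand beside 4.35% higher and 2.87% lower over all tested genes. None of 20 cytosolic ribosomal protein genes passed in edgeR, at an unadjusted p under 0.05, or with DESeq2, limma voom or voom quality weights, and their median was 0.10. The amino acid stress list gave 1 call of 16 (Sesn2) and the endoplasmic reticulum list 1 of 15 (Herpud1), both higher. Herpud1 and Sesn2 lost their calls when mdx_IL5Tg S1 was left out (adjusted p 0.066 to 0.15, edgeR). Herpud1 lost its call when IL5Tg S7, IL5Tg S8, IL5Tg S9 or mdx_IL5Tg S2 was left out or under library totals only (adjusted p 0.065 to 0.14, edgeR). With library totals only, the change of Herpud1 went from 0.54 to 0.32. Of 12 heat shock chaperones 2 fell, with a median of -0.58. Hsph1 was at 211, 177 and 365 CPM in IL5Tg and 109, 153 and 78.8 CPM in mdx_IL5Tg, IL5Tg S9 being highest, and fell by 1.15 ± 0.31 (adjusted p = 0.048, edgeR). Dnaja1 fell by 0.58 ± 0.15 (adjusted p = 0.041, edgeR). Without IL5Tg S9 Hsph1 was at -0.72. Dnaja1 and Hsph1 lost their calls when IL5Tg S7, IL5Tg S8, IL5Tg S9, mdx_IL5Tg S1, mdx_IL5Tg S2, mdx_IL5Tg S3, mdx S4 or mdx S6 was left out (adjusted p 0.054 to 0.19, edgeR). Hsph1 lost its call under no filter or only the groups compared (adjusted p 0.051 to 0.13, edgeR).

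Markers of other cell types were present, and some moved with the groups. Of 10 tested macrophage markers 4 rose and none fell, and the summed level was 246.3 to 288.1 CPM in IL5Tg and 375.4 to 582.6 CPM in mdx_IL5Tg. Most of this sum was Csf1r, the receptor of a macrophage growth factor, at 189, 229.9 and 198 CPM in IL5Tg and 348, 332 and 307 CPM in mdx_IL5Tg (log2 0.68 ± 0.14 (adjusted p = 0.028, edgeR)). Without it, computed after the values were seen, the sums were 98.6, 42.71 and 47.89 CPM in IL5Tg and 172.4, 250.3 and 68.79 CPM in mdx_IL5Tg, so IL5Tg S7 lay above mdx_IL5Tg S3. C1qa, a complement gene of tissue macrophages, was at 1.12, 0.454 and 0.895 CPM in IL5Tg and 5.21, 8.48 and 1.31 CPM in mdx_IL5Tg, and Mrc1, the mannose receptor, at 1.82, 1.62 and 2.87 and 11.9, 15.2 and 4.18 CPM. Both were highest in mdx_IL5Tg S2 and lowest of that group in S3. Their log2 changes were 2.60 ± 0.60 (adjusted p = 0.034, edgeR) and 2.31 ± 0.44 (adjusted p = 0.019, edgeR). C1qa, Csf1r and Mrc1 lost their calls when IL5Tg S7 or mdx_IL5Tg S1 was left out (adjusted p 0.069 to 0.12, edgeR). C1qa and Csf1r lost their calls when IL5Tg S9 or mdx_IL5Tg S2 was left out (adjusted p 0.071 to 0.088, edgeR). C1qa and Mrc1 lost their calls when IL5Tg S8 was left out (adjusted p 0.053 to 0.093, edgeR). C1qa lost its call under limma voom, limma voom with quality weights or no filter (adjusted p 0.057 to 0.12). Csf1r lost its call under library totals only (adjusted p = 0.051, edgeR). Macrophage calls fell to 0 on leaving out IL5Tg S7 or mdx_IL5Tg S1, to 1 for IL5Tg S8 or mdx_IL5Tg S2 and to 2 under limma voom, voom quality weights or no filter. They reached 7 on leaving out mdx_IL5Tg S3 or under DESeq2. Of 6 tested dendritic cell markers the 3 class II genes rose and the defining markers Xcr1 and Clec9a did not pass the filter, with a summed level of 10.97 to 24.06 CPM in IL5Tg and 27.57 to 114.6 CPM in mdx_IL5Tg. Cd74, the invariant chain, was at 8.93, 4.61 and 5.59 CPM in IL5Tg and 40.8, 61.6 and 15.2 CPM in mdx_IL5Tg, a rise of 2.62 ± 0.44 (adjusted p = 0.012, edgeR). Leaving out IL5Tg S9 or mdx_IL5Tg S1 or S2, or dropping the filter, left 1 class II call. The other 3 tested markers did not pass and overlapped between groups: Zbtb46, a transcription factor of dendritic cells, was at -0.64 ± 0.31, the growth factor receptor Flt3 at -1.05 ± 0.99 and Cd209a at 0.83 ± 0.78 (edgeR adjusted p = 0.2, 0.53 and 0.53). Of 6 tested monocyte markers Plac8 rose by 0.90 ± 0.21 (adjusted p = 0.036, edgeR) and Ly6c2 fell by 2.28 ± 0.49 (adjusted p = 0.031, edgeR), with a summed level of 481.4 to 686.5 CPM in IL5Tg and 685.3 to 838.2 CPM in mdx_IL5Tg. Ly6c2 and Plac8 lost their calls when IL5Tg S7, mdx_IL5Tg S1 or mdx_IL5Tg S2 was left out (adjusted p 0.069 to 0.16, edgeR). Ly6c2 lost its call when mdx_IL5Tg S3 or mdx S4 was left out or under no filter (adjusted p 0.05 to 0.11, edgeR). Plac8 lost its call when IL5Tg S8 or IL5Tg S9 was left out (adjusted p 0.073 to 0.093, edgeR).

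Gpnmb and Ctss, both called in every alternative, took the same order of mdx_IL5Tg libraries as C1qa and Cd74. Gpnmb, a glycoprotein of phagocytes, was at 0.8001, 0.227 and 0.857 CPM in IL5Tg and 19.1, 36.6 and 13.9 CPM in mdx_IL5Tg, a rise of 5.21 ± 0.55 (adjusted p = 0.0017, edgeR). Ctss, a lysosomal protease of antigen-presenting cells, was at 1.18, 0.357 and 1.53 and 23.1, 33.1 and 7.94 CPM, a rise of 4.40 ± 0.66 (adjusted p = 0.0097, edgeR). mdx_IL5Tg S2 was highest and S3 lowest in both, as also in Mmp19 and, with S1 close to S2, in Pdk1 and Tgm2 above. Other genes took other orders, with S3 highest in Cd101 and S1 highest in Col22a1. In Mmp12, at a few CPM, S2 and S3 were nearly equal and S1 was lowest. The part of macrophages or other class II positive cells in the values of any of these genes was not tested.

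Muscle fibre markers rose in 4 of 7 tested cases at low levels, with a summed level of 5.293 to 8.178 CPM in IL5Tg and 16.89 to 20.29 CPM in mdx_IL5Tg. Acta1, skeletal actin, was at 1.31, 1.78 and 1.603 CPM in IL5Tg and 4.997, 6.72 and 5.300 CPM in mdx_IL5Tg, a rise of 1.85 ± 0.30 (adjusted p = 0.0097, edgeR). Leaving out IL5Tg S7 or S9 or mdx_IL5Tg S1 left 1 muscle call, with 2 under limma voom or library totals only or when mdx_IL5Tg S2 was left out. T cell, B cell and natural killer cell markers summed to at most 3.488, 35.59 and 0.4028 CPM in any of the 6 libraries. Fibroblast markers summed to 928.5 to 2191 CPM in IL5Tg and 714.7 to 2873 CPM in mdx_IL5Tg, with overlap and no call of 6 tested in edgeR, DESeq2 or limma voom. 1 was higher at an unadjusted p under 0.05.

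**Figure D5:**
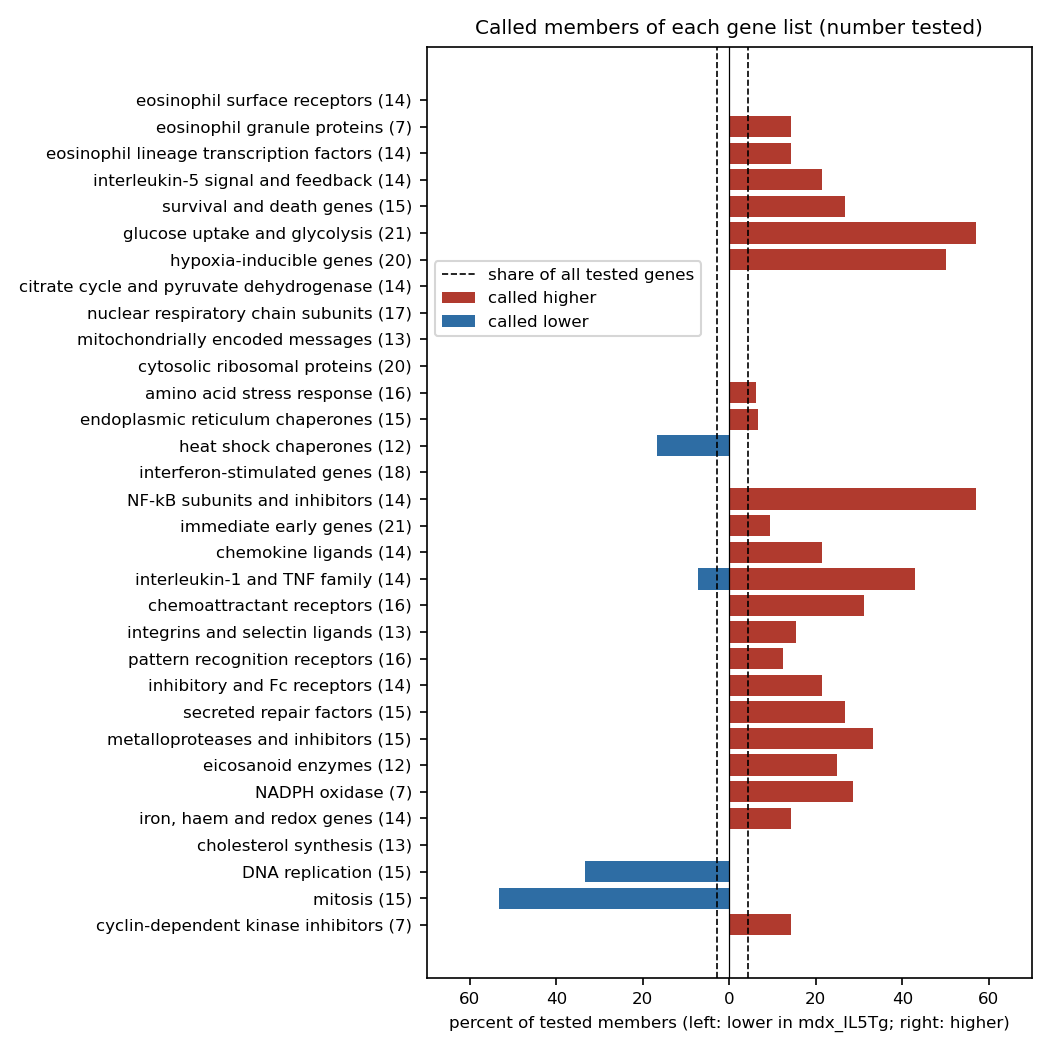
Bars give the percent of tested members of each functional list called higher (right) or lower (left) in mdx_IL5Tg, with the number tested in brackets, and dashed lines mark the share of all tested genes (4.35% and 2.87%). Glycolysis, hypoxia-inducible and NF-kB genes reach furthest to the right, and mitosis and replication genes furthest to the left.

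Falls that held in every alternative numbered 2. Slc5a3, the transporter of the osmolyte myo-inositol, was at 67.4, 90.6 and 96.4 CPM in IL5Tg and 19.9, 28.05 and 35.98 CPM in mdx_IL5Tg, a fall of 1.60 ± 0.24 (adjusted p = 0.0069, edgeR). Gpr141, an orphan receptor, was at 22.4, 41.2 and 17.2 and 4.54, 4.33 and 5.796 CPM, a fall of 2.46 ± 0.35 (adjusted p = 0.006, edgeR). Among the largest losses in CPM, Neat1, a nuclear RNA, was at 2475, 3672 and 1800.3 CPM in IL5Tg and 791, 665 and 1221 CPM in mdx_IL5Tg, S3 being highest of its group, and fell by 1.57 ± 0.27 (adjusted p = 0.014, edgeR). Sele, an adhesion receptor known from endothelium, went from 179.9, 135 and 213 to 71.7, 89.001 and 50.6 CPM, a fall of 1.32 ± 0.24 (adjusted p = 0.017, edgeR). Endothelial markers summed to 316.4 to 423 CPM in IL5Tg and 223.4 to 458.3 CPM in mdx_IL5Tg and were called in 0 of 5 tested cases in edgeR, at an unadjusted p under 0.05 and with DESeq2 or voom. Neat1 and Sele lost their calls when mdx_IL5Tg S1 was left out (adjusted p = 0.098, edgeR). Neat1 lost its call when mdx_IL5Tg S2 was left out (adjusted p = 0.055, edgeR). Sele lost its call when IL5Tg S7 or IL5Tg S9 was left out (adjusted p 0.058 to 0.06, edgeR).

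Among the largest gains in CPM beside Thbs1 and Tgm2 were Txnip, a glucose-responsive inhibitor of thioredoxin, and Actb and Myh9 of the actomyosin cytoskeleton. Txnip went from 1869.5, 2339.5 and 2444 to 3987, 3735 and 4275 CPM, a rise of 0.85 ± 0.14 (adjusted p = 0.013, edgeR). Actb went from 10880.0 ± 957 to 16266 ± 1190.3 CPM (SD, n = 3), a rise of 0.58 ± 0.14, and Myh9 rose by 0.75 ± 0.19. Fth1, ferritin heavy chain, rose by 0.71 ± 0.18. Actb, Fth1, Myh9 and Txnip lost their calls when mdx_IL5Tg S1 was left out (adjusted p 0.063 to 0.19, edgeR). Actb, Fth1 and Myh9 lost their calls when IL5Tg S7, IL5Tg S8, IL5Tg S9, mdx_IL5Tg S2 or mdx S6 was left out or under library totals only (adjusted p 0.054 to 0.11, edgeR). Actb lost its call when mdx S4 was left out (adjusted p = 0.052, edgeR). Myh9 lost its call under RLE factors (adjusted p = 0.053, edgeR). With library totals only, Actb was at 0.37.

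Calls were spread over the autosomes and the X chromosome. Over these the share called ranged from 4.05% on the X chromosome to 8.53% on chromosome 6, against 7.22% of all genes. Within 10 Mb of Dmd on the X chromosome, 78 genes were tested, 0 were higher and 1, Pola1, was lower in edgeR, with a median of -0.11. At an unadjusted p under 0.05, 11 were higher and 8 lower, and DESeq2 called 6 and 3, limma voom 2 and 2, and voom quality weights 7 and 9. Pola1, a subunit of DNA polymerase alpha, was at 19.2, 6.43 and 6.52 CPM in IL5Tg and 3.32, 3.98 and 3.39 CPM in mdx_IL5Tg, IL5Tg S7 being highest as for the replication genes (log2 -1.59 ± 0.39 (adjusted p = 0.037, edgeR)). Without IL5Tg S7 Pola1 was at -0.81. Pola1 lost its call when IL5Tg S7, mdx_IL5Tg S1, mdx_IL5Tg S2, mdx_IL5Tg S3, mdx S4 or mdx S6 was left out (adjusted p 0.05 to 0.17, edgeR).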

How the data were processed

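RNA of eosinophils sorted from mouse quadriceps muscle was measured in 9 libraries of 3 groups, 6 of which are compared here. Reads were prepared with a low-input kit for total RNA, per the labels' protocols. The authors deposited expected counts, RSEM estimates for each gene with no scaling. Per the submitters' processing notes the tools were limma, RSEM 1.3.0, STAR 2.5.3 and cutadapt 2.10, and the build was mm10. Neither the annotation nor a strand setting is given in these sources. RSEM divides reads shared by near-identical genes (Bcl2a1, Ear and Retnlg families among those named), so their values are uncertain. The 6.028% of values that were not whole were rounded. Totals were 26752780 to 30824793 counts per library in IL5Tg, 43297851 to 58368283 in mdx_IL5Tg and 29200231 to 41627444 in mdx. Scaling factors by the trimmed mean method were 1.0003 to 1.0795 in IL5Tg and 0.8665 to 0.9177 in mdx_IL5Tg. Depth and scaling thus moved with the groups compared, and the part of depth in the differences was not tested. Low genes tend to have wider errors, and some abundant granule genes have them too. Columns were tied to groups by name. Positions come from GENCODE M21 (GRCm38), in which 54079 identifiers were found, and 118 genes carry a repeated symbol.

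Genes were filtered with filterByExpr (minimum count 10), scaled by TMM and tested with the quasi-likelihood test of edgeR 4.0.16 (robust, R 4.3.3) with all 9 libraries in 1 fit, Benjamini-Hochberg adjustment over 15886 genes and a threshold of 0.05. P-values set the difference between group means against the spread between libraries, estimated over all 9 and moderated across genes. They cover these libraries only. Alternatives were DESeq2 1.42.0, limma 3.58.1 voom (plain or with quality weights), scaling by RLE factors or by library totals only, a strict filter (50 counts in 3 libraries) or none, a fit of only the groups compared, leaving out small RNA, haemoglobin and mitochondrial genes, and leaving out each library. Lists were described by counts and medians with no test of their own.

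The comparison, its lists and the naming rule were chosen with earlier results of these data known. The rule took the 12 largest rises and falls by log2 change and by CPM among called, well expressed genes without overlap, up to 4 called members of each list by p with its most abundant member, members of cell type marker lists, Il5, Dmd and the sort markers. Genes called in every alternative, and Gapdh, Ldha, Hk2, Gpi1, Slc2a1, Prg2, Epx, Ear2, Ccr3, Il5ra, Pola1, Plac8, Malat1 and Meg3, were added after their values were seen, as was the description by gene type and gene span. The text describes only some of the genes these rules took.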

Additional observations from a re-analysis of the deposited data

How the results depend on the processing

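Counts of calls depended strongly on the libraries and the tool. Genes called higher and lower numbered 1207 and 1257 with DESeq2, 2090 and 2204 with voom quality weights, 311 and 981 with library totals only, and 1123 and 693 with only the groups compared, and lower genes numbered 785 with no filter. With 1 library left out they ranged from 108 to 1557 higher and from 2 to 1084 lower. The share of calls that were higher was 60.2%, but 49.0% with DESeq2, 48.7% with voom quality weights and 24.1% with library totals only, the last moving the median of all genes from -0.050 to -0.268. Genes without overlap between groups then numbered 1516 higher and 4722 lower. Hypoxia-inducible calls numbered 6 with library totals only, and NF-kB calls 4 with totals only and 13 with voom quality weights. Replication calls numbered 11 with DESeq2 and 9 with voom quality weights, and mitosis calls 13 with DESeq2 and 5 with limma voom. With 1 library left out, calls ranged from 5 to 14 for glycolysis, 5 to 11 for hypoxia-inducible genes, 2 to 12 for NF-kB, 0 to 9 for replication and 0 to 11 for mitosis. The cause was not tested. Uncalled genes near 0 changed sign: with library totals only Clec4e (-0.02), Csf2rb (-0.01), Dlst (-0.03), Il1rl1 (-0.00), Oasl2 (-0.19) and Rplp0 (-0.03), with the strict filter Oasl2 (-0.02), and with voom quality weights Pcna (0.06). Camp, uncalled, went from -2.61 to 0.12 with voom quality weights. With 1 library left out, Il5ra ranged from -0.14 to 0.07, Ly6c1 from -0.60 to 0.10 and Pcna from -0.06 to 0.17. No paired analysis was possible because the columns carry no replicate number of the labels. Genes called lower had a lower median level in IL5Tg than genes called higher (7.615 against 55.81 CPM) and a wider median standard error (0.40 against 0.16). Wide errors were not confined to low genes, since the abundant granule genes Prg2, Epx and Ear2 had them too.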

Other observations

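Some other long noncoding RNAs were looked at after their values were seen. Kcnq1ot1, a long antisense RNA of an imprinted region whose reads cannot be told apart from those of Kcnq1 without a strand setting, was at 139, 197 and 109.5 CPM in IL5Tg S7, S8 and S9 and 30.97, 31.4 and 70.98 CPM in mdx_IL5Tg S1, S2 and S3, a fall of 1.74 ± 0.41 (adjusted p = 0.035, edgeR). Meg3, another imprinted long RNA, was at 7.04, 6.07 and 3.35 and 1.56, 1.54 and 2.66 CPM, a fall of 1.52 ± 0.32 (adjusted p = 0.028, edgeR). Malat1 was at 11676, 18866 and 12401 and 5389.6, 5455 and 12124 CPM, with overlapping groups, and was not called (log2 -0.90 ± 0.31 (adjusted p = 0.097, edgeR)). In all 3 RNAs mdx_IL5Tg S3 was highest within its group. Kcnq1ot1 and Meg3 lost their calls when IL5Tg S7, IL5Tg S8, mdx_IL5Tg S1 or mdx_IL5Tg S2 was left out (adjusted p 0.069 to 0.16, edgeR). Kcnq1ot1 lost its call when IL5Tg S9 was left out or under no filter (adjusted p 0.053 to 0.15, edgeR).

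The change of a protein-coding gene went with the length of its span in the genome. In 5 equal bins of the 13263 tested coding genes, from the shortest spans to the longest, the median log2 change was 0.17, 0.11, 0.03, -0.05 and -0.18. The share called higher was 6.03% in the shortest bin (0.204 to 8.35 kb) and 2.64% in the longest (72.8 kb and above), and the share called lower was 1.7% and 2.86%. Coding genes called lower had a median span of 38.2 kb and those called higher 18 kb, against 24.5 kb for all. This was examined after the data were seen and no test was made of it.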
